A study of Mus musculus with 3 samples.

Results

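The 9 genes described here encode the ligands and receptors of the VEGF and angiopoietin systems, which build and maintain blood and lymph vessels. The ligands are Vegfa, Vegfc, Angpt1 and Angpt2, and the receptors are Kdr, Flt1, Flt4, Tek and Tie1. They were taken by symbol from the 32285 genes of single-cell count tables of the embryonic mouse kidney, and each of the 9 was found. The set was chosen with earlier results of these data known. Ligands are described by the class of cells that expressed them, and receptors in the endothelium, in each group.

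Vascular growth in the kidney depends on signals between the nephron, the stroma and the endothelium. Vegfa is released by epithelial cells, above all by podocytes, and signals through Kdr, while Flt1 binds the same ligand tightly and limits how much of it reaches Kdr. Vegfc acts through Flt4, which marks lymphatic vessels and sprouting capillaries. Angpt1, which mesenchymal cells make, activates Tek and steadies vessels, Angpt2 can oppose it, and Tie1 is a partner of Tek with no soluble ligand of its own that is firmly established.

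Kidneys were collected at embryonic day E15.5 from 3 groups. Enl-WT embryos carried unmodified Enl, and Enl-T1 embryos carried 1 conditional copy of the T1 mutation of Enl, the gene (also named Mllt1) of a protein that reads acylated histones. Neither of these groups was treated. In the third group (Enl-T1 TDI-11055, named here by the compound alone), Enl-T1 embryos developed in mothers that received TDI-11055, a small molecule that occupies the acyl-binding pocket of ENL, by mouth once daily at 100 mg/kg from E10.5 to E14.5. By the study's methods, Cre came from a Wt1 GFPCre allele, a knock-in that inactivates 1 copy of Wt1, and the Enl-WT embryos carried that allele too. Wt1-driven Cre acts in the precursors of the nephron and of the stroma, and the endothelium is not part of the lineage the study names for it. Each library pooled kidneys from more than 1 embryo, with no map from cells to embryos, and there was 1 library per group. No test between groups was therefore possible and no p-value is given. Each interval is an exact 95% interval that covers counting error only, not differences between embryos, preparations or libraries.

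The libraries held 37221435 to 76619303 unique molecular identifiers (UMIs, each counting 1 captured transcript) in 6453 to 7186 barcodes. After the study's filter (1000 to 6000 genes, at most 10% mitochondrial UMIs), 5233 Enl-WT, 4144 Enl-T1 and 2754 TDI-11055 cells were kept, with a median of 5090, 9391 and 16931 UMIs per cell, and each pair of libraries shared 5 to 8 of the kept barcodes. The kept cells were 72.8%, 63.0% and 42.7% of the barcodes. The limit of 6000 genes alone removed 55, 309 and 577 barcodes that were within the mitochondrial limit, so it acted unequally on the libraries. The median share of ribosomal protein UMIs in the kept cells was 16.5%, 26.8% and 27.9%. Cells with a UMI of Xist and none of the Y-linked genes were 26.5%, 73.3% and 35.1% of the kept cells. Cells were clustered without the 9 genes, so their own counts did not set the clusters. Other genes with similar patterns were kept, and the ranking of genes used to name clusters included the 9. Levels are given as CPM, the UMIs of the gene per 1000000 UMIs of a class in 1 library.

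The sequence just before the start of 3 of the receptor genes, read along the strand of the gene, is shown because the receptors were all concentrated in the endothelium. Each stretch was taken from the RefSeq promoter table (build GRCm38.p6, up to 250 bases before the start) and holds no base that the GENCODE annotation counts as exon. Capitals mark GGAA and its reverse complement TTCC, the core that ETS factors such as Erg and Fli1 bind. The Kdr stretch is chr5:75978459-75978705 (minus strand), the Flt1 stretch is chr5:147726012-147726261 (minus strand) and the Tek stretch is chr4:94739039-94739288 (plus strand).
Kdr: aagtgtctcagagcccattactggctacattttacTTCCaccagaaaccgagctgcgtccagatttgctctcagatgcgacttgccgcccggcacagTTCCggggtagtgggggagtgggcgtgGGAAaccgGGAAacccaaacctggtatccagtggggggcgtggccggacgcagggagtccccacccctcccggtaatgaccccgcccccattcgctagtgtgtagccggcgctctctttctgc
Flt1: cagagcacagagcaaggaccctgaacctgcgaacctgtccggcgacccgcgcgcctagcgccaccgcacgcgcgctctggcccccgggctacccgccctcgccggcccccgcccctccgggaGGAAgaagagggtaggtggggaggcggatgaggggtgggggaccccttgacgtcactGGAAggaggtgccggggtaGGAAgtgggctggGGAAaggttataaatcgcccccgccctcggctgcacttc
Tek: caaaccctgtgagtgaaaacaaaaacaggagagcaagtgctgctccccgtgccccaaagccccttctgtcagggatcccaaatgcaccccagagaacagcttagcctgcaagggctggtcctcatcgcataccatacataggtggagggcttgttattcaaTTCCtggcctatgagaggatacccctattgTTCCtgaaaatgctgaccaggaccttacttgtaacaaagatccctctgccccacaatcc

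The core occurred 4 times before Kdr (2 GGAA and 2 TTCC), 4 times before Flt1 (each as GGAA) and 2 times before Tek (each as TTCC). Of 32851 promoter windows of 250 bases in the table, 93.4% held at least 1 core on either strand, 76.8% at least 2 and 33.4% at least 4, so these counts describe letters and not binding. The windows of Flt4, Tie1, Vegfa and Vegfc are not printed, and Angpt1 and Angpt2 had no entry. In the GRCm38 annotation Angpt2 (chromosome 8, 18690263 to 18741562, minus strand) overlaps Mcph1 and Angpt1 (chromosome 15, 42424723 to 42676977, minus strand) overlaps Gm17473, both on the other strand, and the other 7 genes overlap none.

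The endothelial-like class held 385 Enl-WT, 245 Enl-T1 and 115 TDI-11055 cells, which was 7.36%, 5.91% and 4.18% of the kept cells. All 12 endothelial markers that named it were detected in each library, at a summed level of 5205.9, 5163.6 and 5087.8 CPM. It was divided into an arterial class (48, 11 and 6 cells), a lymphatic class (15, 22 and 2 cells) and the remaining endothelial cells (322, 212 and 107). The other named classes were nephron progenitors (NP1 and NP2), podocyte-like, proximal and distal tubule-like, ureteric tip, ureteric trunk/collecting duct, urothelium, immune and 5 stromal classes.

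The podocyte-like class went against its name in the Enl-T1 library. It was 1 cluster of 221 Enl-WT, 39 Enl-T1 and 28 TDI-11055 cells, and the summed level of its 8 markers was 10712.4 CPM in Enl-WT, 204.8 CPM in Enl-T1 and 3350.7 CPM in TDI-11055. At least 4 of the 8 markers were detected in 180 of the Enl-WT cells, in none of the Enl-T1 cells and in 13 of the TDI-11055 cells. The summed level of the 9 markers of committed nephron progenitors was 278.9, 1020.7 and 897.8 CPM in the same cells. Summed markers of other cells were also present, with 1210.9, 531.2 and 1128.7 CPM of the 12 endothelial markers (12, 7 and 5 detected) and 2316.9, 4391.8 and 4460.6 CPM of the 8 erythroid genes (7, 6 and 5 detected), and their part in the Vegfa values was not tested. Values in this class are therefore given as those of the cluster, and for the Enl-T1 library they are not called podocyte values.

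Vegfa was expressed in every named epithelial and stromal class and was highest in the podocyte-like class of Enl-WT. There it stood at 556.6 CPM (interval 521.3 to 593.7, 924 UMIs), 5.47 times (4.86 to 6.18) the level in the ureteric trunk and collecting duct, which was 101.7 CPM. That class was 4.22% of the Enl-WT cells and held 34.4% of the library's 2683 Vegfa UMIs. In the remaining endothelial cells, which mostly receive the ligand, Vegfa was at 6.34, 6.60 and 4.89 CPM in Enl-WT, Enl-T1 and TDI-11055. Within the endothelium it was higher in the arterial class of Enl-WT, at 48.1 CPM (23 UMIs, against 3 and 3 in the other libraries), and in the lymphatic class of Enl-T1, at 46.3 CPM (10 UMIs).

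In the cluster that held the podocyte-like cells, Vegfa was at 86.8 CPM (56.2 to 128.1, 25 UMIs) in Enl-T1 and at 216.8 CPM (174.8 to 265.9, 92 UMIs) in TDI-11055. The 3 intervals did not overlap. Ratios between libraries are given relative to the median ratio of all genes of the class with a mean of at least 10 CPM, because that median itself was shifted between libraries. On this scale Vegfa in Enl-T1 was 0.183 times Enl-WT (0.118 to 0.271), TDI-11055 was 2.30 times Enl-T1 (1.47 to 3.74), and TDI-11055 was 0.419 times Enl-WT (0.335 to 0.520). In cells with at least 4 podocyte markers, Vegfa was at 591.2 CPM (553.1 to 631.3) in Enl-WT and at 313.9 CPM (243.7 to 397.9) in TDI-11055, with no such cell in the Enl-T1 class. Outside the class, 3 Enl-T1 cells had at least 4 of the markers, and Vegfa was at 82.3 CPM in them (30.2 to 179.1, from 6 UMIs). That interval lay below those of the marker-bearing cells of Enl-WT and TDI-11055, and it rests on very few cells. The part of the podocyte markers in the difference between the libraries was not tested.

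Outside that cluster the Vegfa level differed less between the libraries. Without the podocyte-like class, all kept cells together were at 57.9 CPM in Enl-WT, 49.3 CPM in Enl-T1 and 34.2 CPM in TDI-11055, against 83.8, 49.5 and 36.0 CPM with it. In the ureteric trunk and collecting duct the level was 101.7, 67.8 and 67.2 CPM, above that of the ureteric tip in each library (ratios 1.99, 1.74 and 2.09). Medullary stroma was of a similar order, at 104.3 CPM (77.6 to 137.1, 51 UMIs), 75.3 CPM (64.5 to 87.4, 173 UMIs) and 88.8 CPM (59.9 to 126.8, 30 UMIs). Stroma as a whole was at 65.9, 63.1 and 41.4 CPM, and TDI-11055 was at 0.638 times Enl-T1 there (0.529 to 0.765). Foxd1 stroma was at 72.7, 57.6 and 34.7 CPM, while medullary stroma showed no such fall from Enl-T1 to TDI-11055. Foxd1 cells were 518 of 1389 stroma-like cells in Enl-T1 and 190 of 270 in TDI-11055. The part of this mix in the stromal ratio was not tested. In the distal tubule-like class TDI-11055 was at 0.481 times Enl-T1 (0.360 to 0.646), from 31.5 against 67.6 CPM. The share of UMIs by source followed these levels and the number of cells: stroma held 9.99%, 31.8% and 9.24% of the Vegfa UMIs of Enl-WT, Enl-T1 and TDI-11055, and was 16.6%, 33.7% and 9.88% of the cells.

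**Figure D1:**
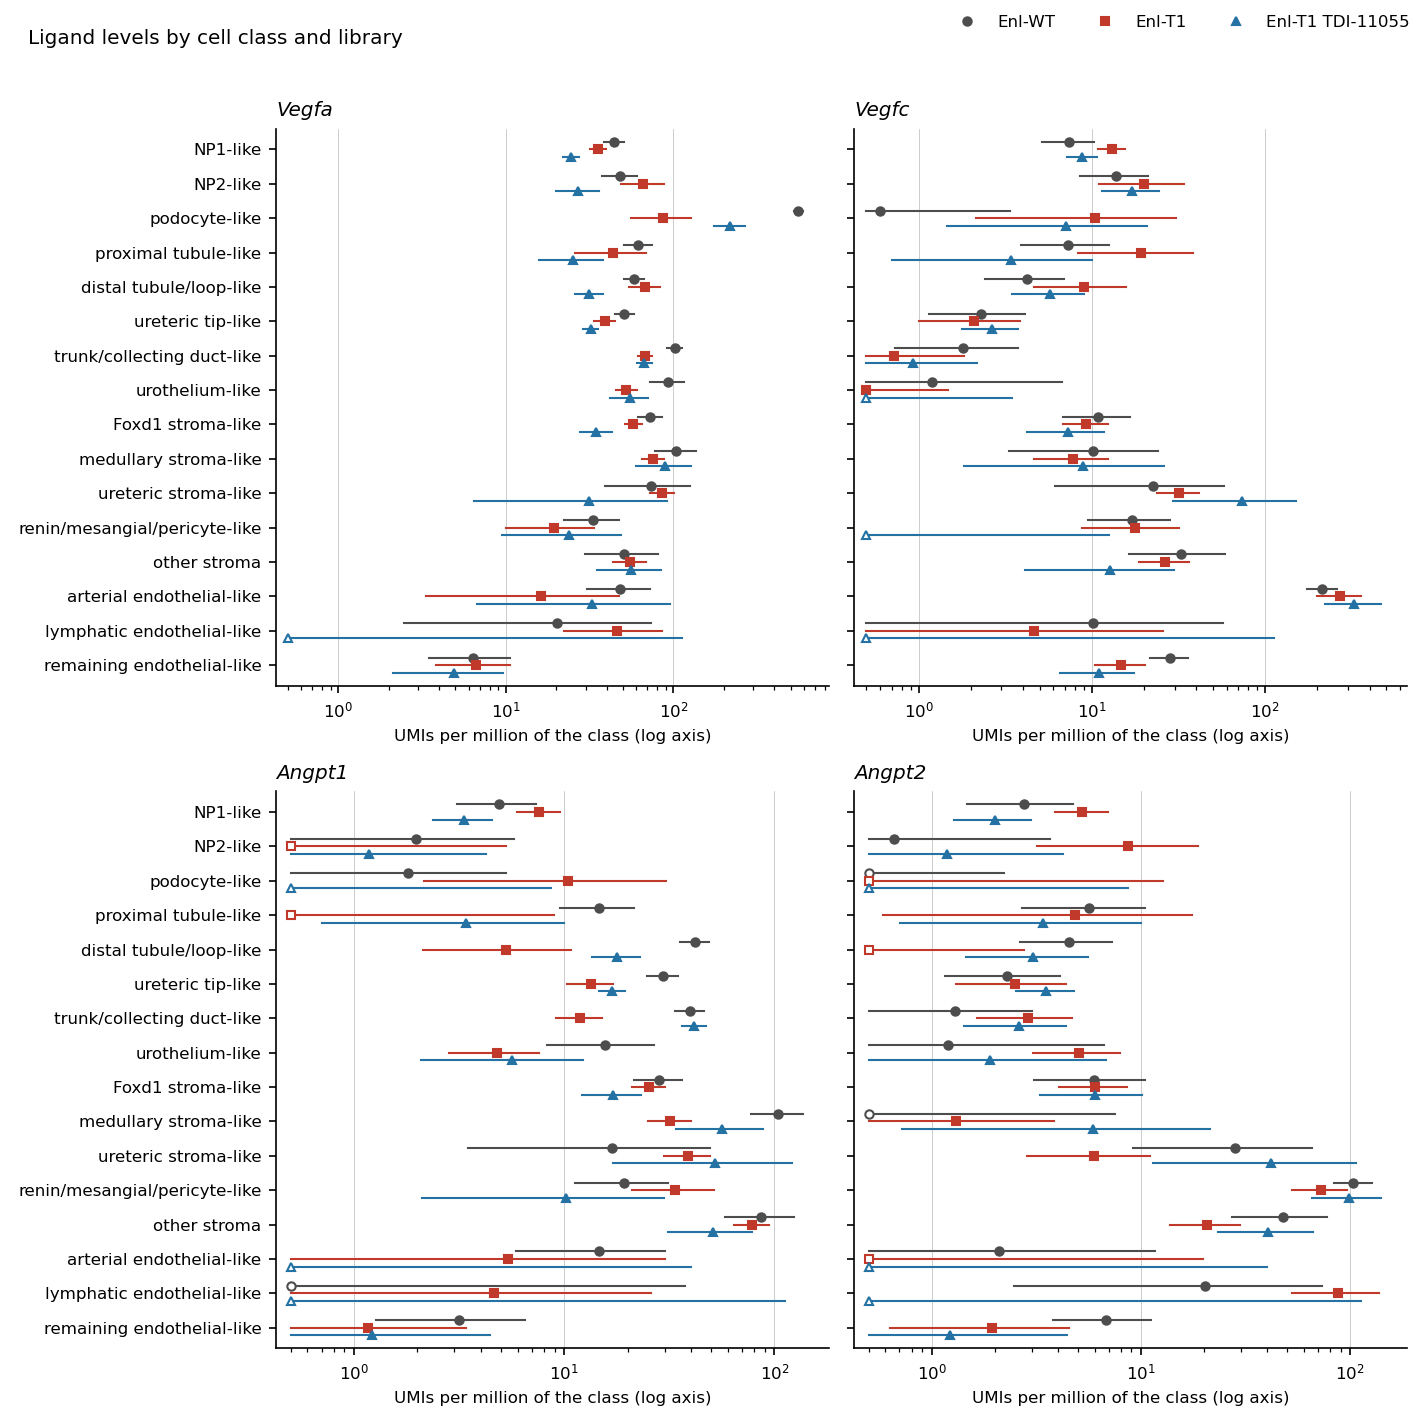
Level of the 4 ligands in each class and library, in CPM on a log axis, with points for libraries and lines for exact 95% Poisson intervals. Values under 0.5 are drawn at 0.5 and open symbols stand for 0 UMIs. Vegfa is highest in the Enl-WT podocyte-like class (556.6 CPM), Vegfc in the arterial class and Angpt2 in the renin/mesangial/pericyte-like class, with the Enl-T1 lymphatic cells beside it.

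**Figure D2:**
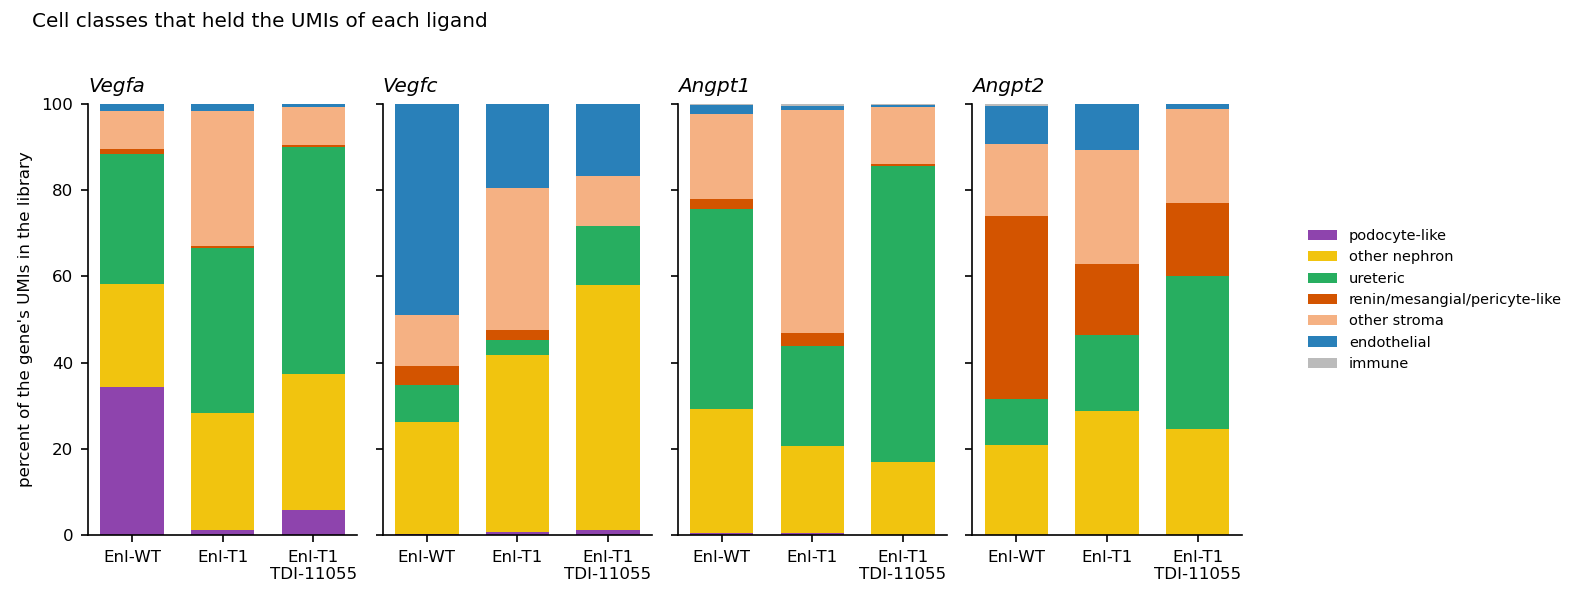
Percent of each ligand's UMIs that came from each group of classes, as stacked bars from 0 to 100, 1 bar for each library. The podocyte-like class gave 34.4% of the Enl-WT Vegfa UMIs, 1.14% of those in Enl-T1 and 5.90% of those in TDI-11055.

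Counted by cells, 84.6% of the podocyte-like class had a Vegfa UMI in Enl-WT, against 41.0% in Enl-T1 and 78.6% in TDI-11055. After each cell was thinned to 2000 UMIs (7, 0 and 0 cells were shallower and left out) the shares were 57.9%, 15.4% and 21.4%. In the endothelial-like class the thinned shares were 2.67%, 1.22% and 0% (the last from 0 of 115 cells, which allows up to 3.16%), which is the background level to set beside them. Median depth was 5779, 7163 and 14301 UMIs in the former and 5593, 10239 and 14222 UMIs in the latter.

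Vegfc was at its highest in the arterial endothelium. The level there was 213.5 CPM (174.1 to 259.2, 102 UMIs) in Enl-WT, 269.3 CPM (199.9 to 355.1, 50 UMIs) in Enl-T1 and 326.9 CPM (220.5 to 466.6, 30 UMIs) in TDI-11055, from 48, 11 and 6 cells. The remaining endothelial cells of the same libraries held 62, 38 and 18 UMIs, and the arterial level was 7.61 times (5.49 to 10.6), 18.3 times (11.7 to 28.6) and 29.7 times (16.0 to 56.6) theirs in CPM. The arterial level was thus above that of the other endothelial cells in every library. Lymphatic cells, which carry the receptor for Vegfc, held 1, 1 and 0 Vegfc UMIs.

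In the whole endothelial-like class Vegfc was at 59.2, 29.9 and 27.2 CPM. It was at 0.629 times the Enl-WT level in Enl-T1 (0.481 to 0.819) and at 0.590 times in TDI-11055 (0.419 to 0.819). The arterial class, which had the highest level, was 48 of 385 cells in Enl-WT, 11 of 245 in Enl-T1 and 6 of 115 in TDI-11055. Within the arterial cells the relative ratio of Enl-T1 to Enl-WT was 1.47 (1.03 to 2.08), and within the remaining endothelial cells it was 0.655 (0.426 to 0.997), so the lower level of the whole class was not seen in each of its parts. In NP1, the self-renewing nephron progenitors, Vegfc was low at 7.42, 13.0 and 8.82 CPM, with Enl-T1 at 2.25 times Enl-WT (1.54 to 3.38) and TDI-11055 at 0.667 times Enl-T1. NP1 pooled several clusters in unequal parts. The one led by Cited1 was 330 of 841 cells in Enl-WT, 174 of 774 in Enl-T1 and 181 of 713 in TDI-11055. The part of these clusters in the ratios was not tested. The thinned share of NP1 cells with a UMI was 1.32%, 2.46% and 2.25%, against 0.175%, 0.227% and 0.315% in the ureteric trunk and collecting duct, where Vegfc was at 1.81, 0.719 and 0.933 CPM.

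Angpt1 was spread over the stroma, the ureteric epithelium and the distal tubule. In stroma-like cells as a whole it was at 40.2 CPM (34.2 to 47.0) in Enl-WT, 35.9 CPM (32.5 to 39.6) in Enl-T1 and 25.2 CPM (20.2 to 31.1) in TDI-11055. The relative ratio was 1.11 (0.917 to 1.34) for Enl-T1 to Enl-WT and 0.681 (0.534 to 0.862) for TDI-11055 to Enl-T1. Neither passed 1.5-fold. In stroma, 13.6% of 8748 genes were at least 1.5-fold higher and 11.6% lower in Enl-T1 compared with Enl-WT, and 9.22% of 8373 genes were higher and 11.3% lower in TDI-11055 compared with Enl-T1. Of the 4 ligands in stroma, Angpt2 alone passed 1.5-fold in the first comparison (lower). In the second, Vegfa and Vegfc were lower and Angpt2 higher. In the cells with a UMI of Xist and none of the Y-linked genes, Angpt2 no longer passed in the second comparison, at a relative log2 ratio of 0.05 in place of 0.78, and neither did Vegfa, at -0.49 in place of -0.65. Those backgrounds are relative to the median of all genes, and the split depends on it: of the stromal genes past 1.5-fold between Enl-T1 and Enl-WT, 54.1% were higher on the relative scale and 17.7% on the scale of CPM as they stand.

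The stromal total of Angpt1 hid differences between its classes. In medullary stroma, Angpt1 was at 104.3 CPM (77.6 to 137.1, 51 UMIs) in Enl-WT, 31.8 CPM (24.9 to 39.9, 73 UMIs) in Enl-T1 and 56.3 CPM (33.9 to 87.9, 19 UMIs) in TDI-11055. The Enl-WT level was 3.70 times (2.48 to 5.49) that of Foxd1 stroma, the cortical stroma with the progenitors, where it was 28.2, 25.2 and 17.1 CPM. In Enl-T1 that ratio was 1.26, with an interval that includes 1, and in TDI-11055 it was 3.28 (1.79 to 5.80). The number of medullary cells was 138, 348 and 29. The class of other stroma, which no list named further, was at 86.4 CPM (57.9 to 124.1, 29 UMIs) in Enl-WT, 78.4 CPM (64.5 to 94.5, 110 UMIs) in Enl-T1 and 50.9 CPM (31.1 to 78.6, 20 UMIs) in TDI-11055, and its levels in Enl-WT and Enl-T1 overlapped.

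In 2 epithelial classes Angpt1 was low in Enl-T1 and higher in both other libraries. The distal tubule-like class was at 42.0 CPM (158 UMIs) in Enl-WT, 5.26 CPM (7 UMIs) in Enl-T1 and 17.9 CPM (59 UMIs) in TDI-11055. Its relative ratio was 0.150 (0.0592 to 0.315) for Enl-T1 to Enl-WT and 3.51 (1.60 to 9.11) for TDI-11055 to Enl-T1. The ureteric trunk and collecting duct was at 39.6, 11.9 and 41.4 CPM (153, 66 and 222 UMIs), with ratios of 0.365 (0.269 to 0.490) and 3.42 (2.58 to 4.57). TDI-11055 stood there at 1.22 times Enl-WT (0.992 to 1.51), an interval that includes 1. The class pooled 3 clusters in unequal parts, and the one with the highest Angpt1 was 43.9%, 30.2% and 43.2% of its cells. Within that cluster Angpt1 was at 62.5 CPM (48.7 to 79.0) in Enl-WT, 16.1 CPM (10.3 to 24.0) in Enl-T1 and 63.0 CPM (53.1 to 74.2) in TDI-11055. In the second cluster it was at 37.6 CPM (28.7 to 48.6), 13.7 CPM (8.79 to 20.4) and 32.5 CPM (25.2 to 41.3), so in both of these Enl-T1 lay below the other libraries without overlap. In the last cluster, at 20.4, 7.76 and 11.7 CPM from 24, 18 and 12 UMIs, the TDI-11055 interval overlapped that of Enl-T1. In the ureteric tip, the neighbouring class of the same tree, the ratio was 0.559 (0.409 to 0.756) for Enl-T1 to Enl-WT, from 29.5 and 13.4 CPM, and TDI-11055 was at 16.9 CPM. The thinned share of trunk and collecting duct cells with a UMI was 9.62%, 1.81% and 5.36%, and that of the endothelial-like class, where Angpt1 was at 5.03, 1.68 and 1.14 CPM, was 1.07%, 1.22% and 0.870%. The nephron clusters left unnamed (84, 297 and 93 cells) went the other way, at 7.49, 30.1 and 5.84 CPM from 3, 68 and 4 UMIs. Their relative ratios were 5.47 (1.79 to 27.2) for Enl-T1 to Enl-WT and 0.198 (0.0525 to 0.531) for TDI-11055 to Enl-T1.

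Angpt2 had its highest level in Enl-WT and TDI-11055 in the class that holds renin cells, mesangial cells and pericytes, the cells that wrap small vessels and the glomerular capillaries. In Enl-T1 the few lymphatic cells were as high. In the renin/mesangial/pericyte-like class Angpt2 stood at 103.5 CPM (83.4 to 127.1, 91 UMIs) in Enl-WT, 72.3 CPM (52.7 to 96.7, 45 UMIs) in Enl-T1 and 98.3 CPM (65.8 to 141.1, 29 UMIs) in TDI-11055, with overlapping intervals. These levels were 17.4, 12.0 and 16.4 times those of Foxd1 stroma, which lay at 5.94 to 6.04 CPM. The class was 164, 68 and 16 cells in Enl-WT, Enl-T1 and TDI-11055, or 3.13%, 1.64% and 0.581% of the kept cells. Over the whole stroma Angpt2 was at 31.8, 10.7 and 18.8 CPM. The relative ratio was 0.416 (0.320 to 0.540) for Enl-T1 to Enl-WT and 1.71 (1.25 to 2.34) for TDI-11055 to Enl-T1. Within the renin/mesangial/pericyte-like class these ratios were 0.848 (0.579 to 1.22) and 1.34 (0.812 to 2.19). In other stroma they were 0.566 (0.298 to 1.12) and 1.75 (0.886 to 3.33), from 16, 29 and 16 UMIs. Ureteric stroma was at 28.2, 5.97 and 41.8 CPM, from 5, 10 and 4 UMIs. Foxd1 stroma stayed level, and medullary stroma held 0, 3 and 2 UMIs. The part of the mix of classes in the stromal ratios was not tested.

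No Angpt2 UMI was counted in the podocyte-like class of any library (upper limits 2.22, 12.8 and 8.69 CPM). In the remaining endothelial cells Angpt2 was at 6.79, 1.94 and 1.22 CPM from 15, 5 and 2 UMIs. The lymphatic cells of Enl-T1 were at 87.9 CPM (52.9 to 137.3, 19 UMIs in 22 cells), and 2 UMIs were counted in the 15 lymphatic cells of Enl-WT. Over the whole endothelial-like class, where Angpt2 lay at 6.46, 8.06 and 1.14 CPM, the relative ratio of Enl-T1 to Enl-WT was 1.56 (0.809 to 3.04) with the lymphatic cells and 0.380 (0.109 to 1.09) without them.

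In the self-renewing progenitors (NP1), which hold little of either angiopoietin, both stood higher in Enl-T1 than in the other libraries: Angpt1 had a relative ratio of 2.00 (1.23 to 3.35) to Enl-WT and TDI-11055 had one of 0.432 (0.286 to 0.646) to Enl-T1, and for Angpt2 these were 2.44 (1.30 to 4.90) and 0.376 (0.221 to 0.624). The levels there were 4.87, 7.59 and 3.33 CPM for Angpt1 and 2.75, 5.24 and 2.00 CPM for Angpt2, under the 10 CPM that a call required. As for Vegfc, the part of the unequal NP1 clusters was not tested. Within one library the ratio of Angpt2 to Angpt1 UMIs does not depend on the library total. In stroma it was 0.790 (0.619 to 1.01) in Enl-WT, 0.297 (0.239 to 0.366) in Enl-T1 and 0.747 (0.533 to 1.04) in TDI-11055.

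All 5 receptors were concentrated in the endothelium in every library. Kdr was at 668.2 CPM (638.2 to 699.3, 1861 UMIs) in the Enl-WT endothelial-like class, 562.7 CPM (536.1 to 590.3, 1676 UMIs) in Enl-T1 and 380.9 CPM (352.6 to 410.9, 671 UMIs) in TDI-11055, against 2.72, 1.62 and 0.683 CPM in all other named classes together. Endothelial clusters, with the small mixed clusters left unnamed, held 95.8%, 96.4% and 96.1% of the Kdr UMIs and 96.2%, 94.0% and 95.7% of the Flt1 UMIs. The lowest such share of any receptor and library was 80.8%, for Flt4 in TDI-11055, where 101 of 125 UMIs lay in the endothelium. An endothelial-like cell had a Kdr UMI in 90.9%, 95.1% and 79.1% of cases (thinned 68.5%, 63.3% and 37.4%), and a cell of the other named classes in 0.928%, 1.33% and 0.911% (thinned 0.247%, 0.231% and 0.125%). Median depth was 5593, 10239 and 14222 UMIs in the former and 4977, 9529 and 17661 in the latter, and thinning left out 10, 0 and 0 endothelial-like cells.

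**Figure D3:**
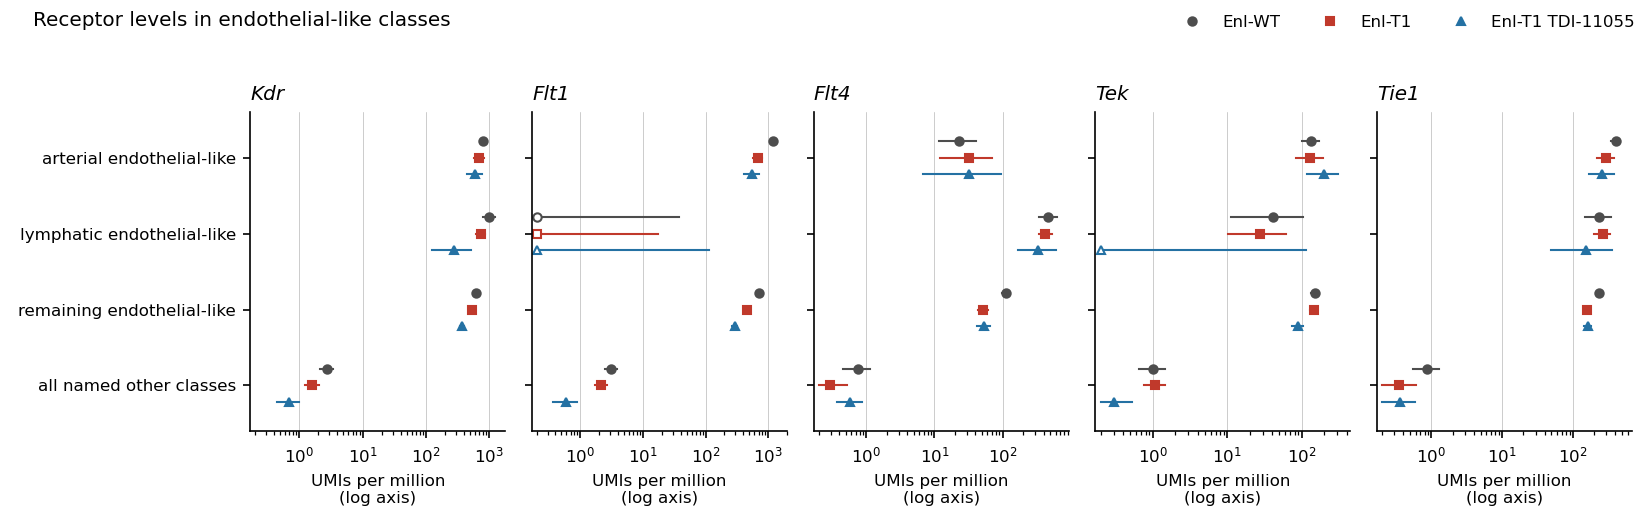
Level of the 5 receptors in the 3 endothelial classes and in all other named classes together, by library, in CPM on a log axis, with exact 95% Poisson intervals as lines. Values under 0.2 are drawn at 0.2 and open symbols stand for 0 UMIs. The endothelial classes stand above the others, except that Flt1 has 0 UMIs in the lymphatic class of each library and Tek has 0 UMIs in that of TDI-11055.

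The endothelial classes differed in their receptors. Flt1 had no UMI in the lymphatic class of any library (15, 22 and 2 cells, upper limits 37.5, 17.1 and 112.5 CPM), while Kdr was present there at 996.6, 735.5 and 274.4 CPM. In arterial cells Flt1 was at 1188.8, 678.7 and 544.8 CPM, which was 1.65, 1.49 and 1.85 times the 720.2, 454.8 and 294.5 CPM of the remaining endothelial cells. The arterial level of Tie1 was likewise above that of the remaining cells in each library, by 1.72 times (1.45 to 2.03), 1.89 times (1.40 to 2.51) and 1.60 times (1.01 to 2.44). For Kdr the arterial level was 1.25 times (1.12 to 1.41), 1.29 times (1.07 to 1.55) and 1.58 times (1.18 to 2.09) that of the remaining cells, in Enl-WT a smaller excess than that of Flt1 or Tie1. Tek had no arterial excess beyond counting error in Enl-WT and Enl-T1, where it was 0.885 times (0.665 to 1.16) and 0.900 times (0.570 to 1.36), and had one in the 6 cells of TDI-11055, at 2.21 times (1.28 to 3.62).

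Flt4 showed the reverse order. Lymphatic cells had 467.8 CPM (46 UMIs), 425.6 CPM (92 UMIs) and 335.4 CPM (11 UMIs), the remaining endothelial cells 110.5, 52.0 and 53.1 CPM, and arterial cells 23.0, 32.3 and 32.7 CPM from 11, 6 and 3 UMIs. Lymphatic cells were above the remaining cells by 4.23 times (3.02 to 5.82), 8.18 times (6.21 to 10.8) and 6.31 times (3.04 to 11.9). Tek was lower in lymphatic than in the remaining cells, at 0.273 times (0.0740 to 0.706) in Enl-WT and 0.193 times (0.0705 to 0.425) in Enl-T1, and had no UMI in the 2 lymphatic cells of TDI-11055.

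Between Enl-T1 and Enl-WT the receptors of the endothelial-like class moved by less than 1.5-fold relative to the median of all genes, which itself lay at -0.32 on the log2 scale. Kdr was at 1.05 times (0.983 to 1.12) and Tek, at 142.2 CPM in Enl-WT and 134.3 CPM in Enl-T1, at 1.18 times (1.02 to 1.36). Flt1, the trap for Vegfa, was at 775.2 CPM (742.8 to 808.6) in the Enl-WT library and 435.8 CPM (412.4 to 460.2) in that of Enl-T1, with a ratio of 0.701 (0.654 to 0.752). Tie1, at 265.3 and 173.2 CPM, had a ratio of 0.815 (0.727 to 0.913). None of the 5 receptors passed 1.5-fold in either direction, where 12.3% of 8387 genes were higher and 10.8% lower, and their median was -0.15 on the relative log2 scale. On the scale of CPM as they stand, 2 of 5 receptors (Flt1 and Tie1) were at least 1.5-fold lower, beside 4.92% of all genes higher and 28.9% lower. The share of higher genes among all past 1.5-fold was 53.3% on the relative scale and 14.6% on this one.

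Flt4 in this comparison depended on the lymphatic cells. In the whole class it was at 108.1 and 77.9 CPM, a relative ratio of 0.899 (0.754 to 1.07), and without the lymphatic cells, which were 15 in Enl-WT and 22 in Enl-T1, it was at 94.9 and 50.7 CPM, a ratio of 0.668 (0.539 to 0.824). The summed lymphatic markers in the class were 138.2 CPM in Enl-WT, 232.0 CPM in Enl-T1 and 43.7 CPM in TDI-11055. In the remaining endothelial cells alone, Flt4 was the 1 receptor past 1.5-fold, at 0.587 times (0.472 to 0.728) the Enl-WT level, where 12.5% of 8277 genes were higher and 10.7% lower. Kdr, by contrast, had a ratio of 1.05 without them too.

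Between TDI-11055 and Enl-T1 the ratios of Kdr, Flt1, Tek and Flt4 were under 1 and that of Tie1 was near 1. How many of all genes had an interval that excluded 1 was not counted, so the intervals here describe counting error of each gene only. Kdr was at 0.693 times (0.633 to 0.758), Flt1 at 0.709 times (0.640 to 0.785), Tek at 0.705 times (0.584 to 0.848) and Flt4 at 0.753 times (0.590 to 0.956), while Tie1 was at 0.993 times (0.858 to 1.15). None passed 1.5-fold in the whole class, where 10.3% of 7938 genes were higher and 14.3% lower, and the median of the 5 was -0.50 on the relative log2 scale. In the remaining endothelial cells alone, Tek at 0.634 times (0.520 to 0.771) and Flt1 at 0.666 times (0.597 to 0.741) did pass, as the 2 of 5 receptors, where 11.4% of 7882 genes were higher and 15.0% lower. Without the lymphatic cells Flt4 was at 1.05 times, with an interval that includes 1. The median of all genes was shifted by -0.03 in this comparison, so the centring changed little.

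The comparison of TDI-11055 with Enl-WT shares its libraries with the other two. In it the ratio of Flt1 had an interval of 0.454 to 0.550, from 302.0 against 775.2 CPM, and this receptor alone passed 1.5-fold, where 21.4% of 8279 genes were higher and 22.3% lower. Flt4 was at 0.681 times (0.538 to 0.856), Kdr at 0.732 times, Tek at 0.835 times (0.692 to 1.01) and Tie1 at 0.813 times (0.708 to 0.932). As they stand, the CPM of all 5 were at least 1.5-fold lower in TDI-11055, beside 38.9% of all genes lower and 7.31% higher (15.8% of those past 1.5-fold were higher, against 49.0% on the relative scale). Flt1 was lowest in TDI-11055 and highest in Enl-WT in the arterial cells and in the remaining endothelial cells as well, with relative ratios of 0.528 (0.387 to 0.706) and 0.523 (0.472 to 0.580).

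**Figure D4:**
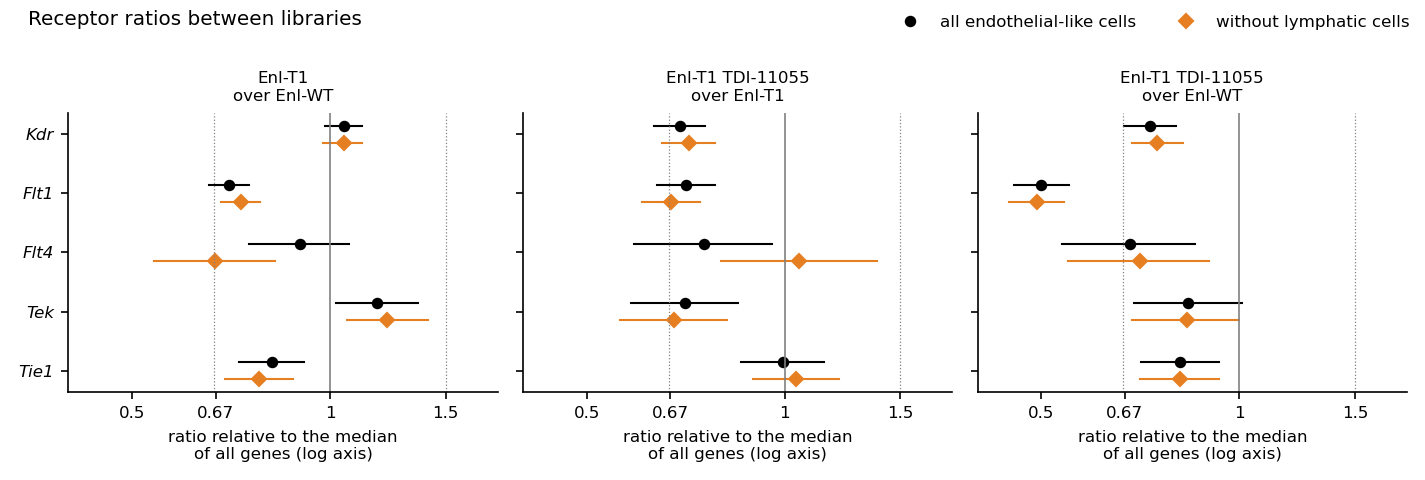
Ratio between libraries of each receptor in endothelial-like cells relative to the median of all genes, on a log axis, with and without the lymphatic cells, with exact 95% intervals as lines and dotted lines at 1.5-fold. Flt1 is under 1 in each of the 3 comparisons, and Flt4 moves when the 15, 22 and 2 lymphatic cells are left out.

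The balance of receptors within a library does not depend on any scaling. The ratio of Flt1 to Kdr UMIs in endothelial-like cells was 1.16 (1.09 to 1.23) in Enl-WT, 0.774 (0.720 to 0.833) in Enl-T1 and 0.793 (0.706 to 0.890) in TDI-11055. It was 1.15, 0.844 and 0.793 in the remaining endothelial cells and 1.51 (1.32 to 1.73), 0.977 (0.758 to 1.26) and 0.926 (0.617 to 1.39) in the arterial cells, so Enl-WT was highest in each. The ratio of Tie1 to Tek UMIs was 1.87 (1.65 to 2.11), 1.29 (1.13 to 1.47) and 1.82 (1.49 to 2.21), lowest in Enl-T1. These are UMI ratios of different transcripts and say nothing of their relative molecule numbers, only of a difference between libraries.

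Most endothelial-like cells held both Vegfa receptors: Kdr and Flt1 UMIs were found together in 316 of 385, 200 of 245 and 81 of 115 cells, and neither in 11, 3 and 17. The 17 cells of TDI-11055 had a median of 3283 UMIs, against 15626 in its other endothelial-like cells, and their part in the lower levels of that library was not tested.

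Other features of the class differed between the libraries beside the receptors. The share of endothelial-like cells with a UMI of Mki67 or Top2a, which dividing cells express, was 63.9%, 47.3% and 53.9%. These shares were not thinned, and median depth was 5593, 10239 and 14222 UMIs. A cell without such a UMI is therefore not the same thing in each library. Summed markers of arterial cells were 746.8, 396.8 and 447.4 CPM (6, 6 and 6 of 6 detected), those of glomerular endothelium 121.7, 31.6 and 42.6 CPM (3, 3 and 3 of 3), podocyte markers 272.9, 147.7 and 149.3 CPM (8, 6 and 6 of 8), renin and pericyte markers 221.2, 97.0 and 86.9 CPM (8, 6 and 4 of 8) and haemoglobin and other erythroid genes 2708.0, 2437.4 and 516.0 CPM (7, 6 and 6 of 8). In cells with no Mki67 or Top2a UMI, Kdr in Enl-T1 relative to Enl-WT was -0.32 on the log2 scale in place of 0.07, and Flt1 was -0.91 in place of -0.51. The part of the other markers in the receptor levels was not tested.

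Genes that work with the receptors were counted from fixed lists in the endothelial-like class, by the same 1.5-fold rule. Over all genes of the class, 12.3% were higher and 10.8% lower in Enl-T1 compared with Enl-WT, as given above, and 28.9% were lower as CPM stand. Of 8 genes of tip cells, the leading cells of a sprout, 7 reached 10 CPM, and 5 were lower and none higher in Enl-T1 compared with Enl-WT, with a median of -0.66 on the relative log2 scale. Unc5b, a guidance receptor, was at 243.1 CPM in Enl-WT and 77.6 CPM in Enl-T1 (ratio 0.398, 0.341 to 0.463), Esm1 (endocan, which sprouts secrete) at 67.1 and 22.5 CPM (0.418, 0.311 to 0.555) and Igfbp3 at 392.8 and 152.4 CPM (0.484, 0.433 to 0.541). Each of these ratios was under that of any of the 5 receptors. Efnb2 and Dll4, genes of arterial identity and Notch signalling, were the other 2 and had ratios of 0.632 and 0.661. Arterial cells were 48 of the 385 endothelial-like cells in Enl-WT and 11 of 245 in Enl-T1. Their part in the count of tip cell genes was not tested.

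Of the 3 co-receptors and receptor phosphatases, Nrp1, which helps Vegfa bind Kdr, was at 430.5 CPM in Enl-WT and 223.9 CPM in Enl-T1 (0.649, 0.590 to 0.714) and Ptprb, the phosphatase that restrains Tek, at 377.4 and 189.0 CPM (0.625, 0.563 to 0.693). Nrp2, the co-receptor of lymphatic endothelium, was higher in Enl-T1 at 237.0 against 191.0 CPM (1.55, 1.38 to 1.74). The class held 22 lymphatic cells in Enl-T1 and 15 in Enl-WT, and their part in this ratio was not tested. Of 2 other ligands above 10 CPM, Pgf, which binds Flt1, was higher at 13.1 against 7.54 CPM from 39 and 21 UMIs (2.17, 1.24 to 3.88). Of 5 signal relay genes above 10 CPM, Nos3, the endothelial nitric oxide synthase, was lower (0.568, 0.458 to 0.702), and the VEGFC-processing genes Ccbe1 and Adamts3 did not reach 10 CPM.

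Of 11 endothelial transcription factors, all above 10 CPM, Sox18 was higher in Enl-T1, at 79.2 against 51.3 CPM in Enl-WT (1.93), and Notch4 and Notch1 were lower (0.618 and 0.641). With 1 higher and 2 lower of 11, beside 12.3% higher and 10.8% lower over all genes, the list lay near the background. Erg and Fli1, the ETS factors of the promoter search, were within 1.5-fold at 0.863 and 1.13. Of 6 hypoxia-sensing genes none passed, and of 5 measured hypoxia-induced genes Ankrd37 was higher (1.56, 1.04 to 2.37).

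In TDI-11055 compared with Enl-T1 the lists were counted against the shares given above for that comparison. Of the 7 tip cell genes Esm1 was higher, at 44.3 against 22.5 CPM (2.01, 1.43 to 2.84), and Apln lower (0.661, 0.462 to 0.933), with a median of -0.28. Nrp2 was lower, at 105.0 against 237.0 CPM (0.454, 0.384 to 0.534), in libraries with 2 and 22 lymphatic cells. Klf4, Fli1 and Erg were the 3 of 11 transcription factors past 1.5-fold, all lower (0.569, 0.576 and 0.603), beside 10.3% of all genes higher and 14.3% lower. Egln3, of the hypoxia-sensing genes, and Adm, of the hypoxia-induced ones, were higher (ratios 1.78 and 1.98). Unc5b, at 62.4 CPM, was at 0.824 times the Enl-T1 level (0.651 to 1.04), and Dll4, at 34.1 CPM, at 0.697 times (0.508 to 0.947).

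**Figure D5:**
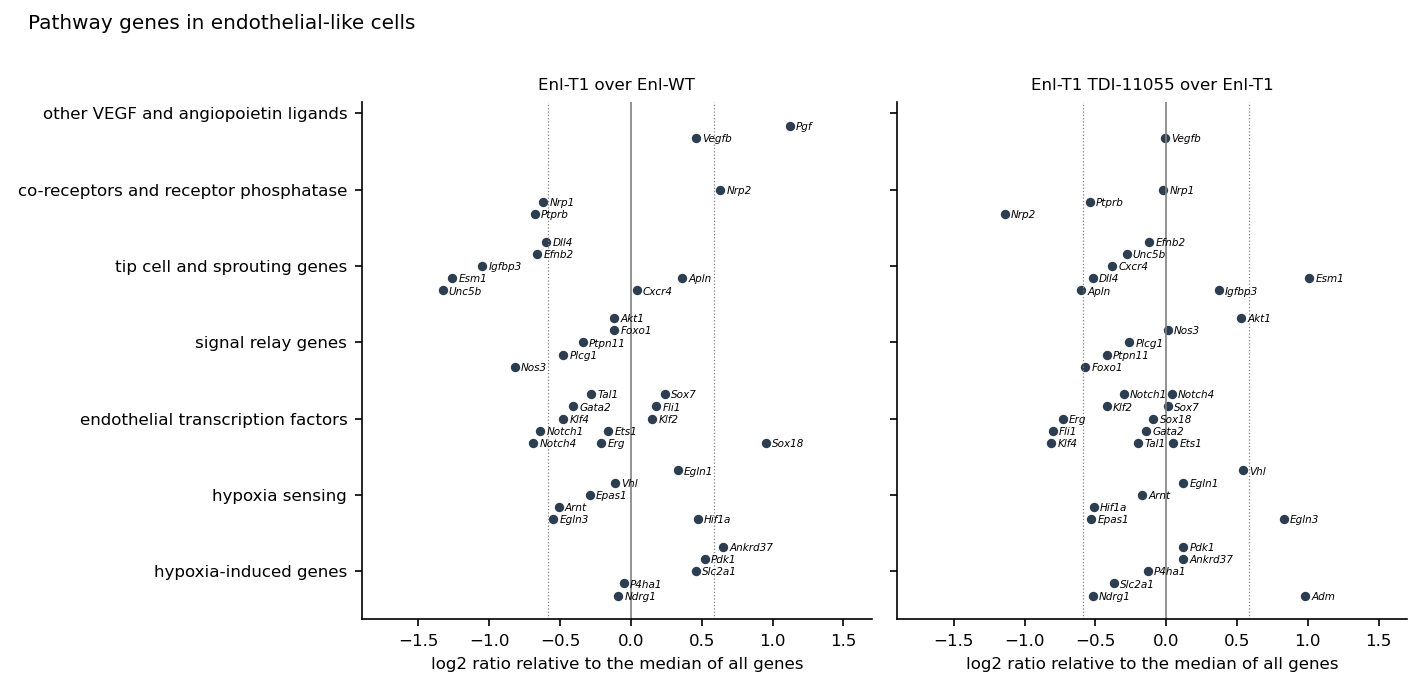
Log2 ratio relative to the median of all genes in endothelial-like cells for the genes of the fixed lists with at least 10 CPM, for Enl-T1 over Enl-WT and TDI-11055 over Enl-T1, grouped by list. Of the 7 tip cell genes, 5 lie past 1.5-fold lower in the first comparison and 1 in the second.

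Hypoxia is a known inducer of Vegfa, so the same lists were counted in the podocyte-like cluster. Of 6 hypoxia-induced genes measured there, Bnip3, P4ha1 and Pdk1 were higher and Adm and Slc2a1 lower in Enl-T1 compared with Enl-WT, where 27.5% of 8596 genes were higher and 28.5% lower. Adm, the gene of the vasodilator adrenomedullin, had 141 UMIs (84.9 CPM) in Enl-WT, 0 in Enl-T1 and 6 (14.1 CPM) in TDI-11055. Of 4 hypoxia-sensing genes none passed. In TDI-11055 against Enl-T1, Slc2a1 and Ankrd37 were higher and Bnip3, P4ha1 and Pdk1 lower, where 22.6% of 8348 genes were higher and 21.7% lower, so the list moved in both directions in each comparison. As CPM stand, 36.1% of the genes past 1.5-fold were higher in the first comparison and 62.3% in the second, against 49.1% and 51.0% on the relative scale. The Enl-T1 values rest on 39 cells that were low in podocyte markers.

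The genes most like each member were sought among 10784 genes, by Pearson's r of log2(CPM + 10) over 36 sums of a class in a library with at least 50 cells. These points share libraries and depth, so r is a description. Kdr was followed by Myct1, Tie1 and Ptprb (each 0.99), Flt1 by Myct1, Tal1 and Ptprb (each 0.99), Tek by Bcl6b, Cdh5 and Erg (each 0.99), Flt4 by Nos3, Mmrn1 and Pik3r6 (each 0.99) and Tie1 by Robo4, Arhgap25 and Gimap4 (1.00, 0.99 and 0.99), and most of these are known endothelial genes. The ligands had looser neighbours. For Angpt2 these were Pld5, Aoc3 and Abcc9 (0.92, 0.91 and 0.90), of which Abcc9 is a pericyte channel subunit. For Vegfa they were Araf, Pard3b and Senp7 (0.87, 0.84 and 0.84), for Angpt1 Sh3bp1, Nfatc4 and Smarca1 (0.81, 0.81 and 0.79) and for Vegfc Timp1, Meis2 and Dlc1 (0.78, 0.78 and 0.77).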

How the data were processed

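Single-cell RNA of 3 mouse kidney libraries was measured with the Chromium 3′ chemistry (version 3.1), after red blood cell lysis. The deposited matrices hold raw UMI counts per gene and barcode, which the authors made with Cell Ranger 6.1.2 against mm10 (submitters' processing notes). The study's cell filter was applied. Cells were integrated and clustered in Seurat 5.3.0 (R 4.3.3, resolution 0.5). The nephron, stromal, ureteric and endothelial cells were then each integrated and clustered again, all but the endothelial cells at a higher resolution. Left out of the clustering were the 9 genes, the listed pathway genes, 43 Hox genes and 130 technical genes (mitochondrial, ribosomal, haemoglobin and sex-linked). Clusters were named "-like" from fixed marker lists by a scoring rule set after the clusters were seen. Names are rebuilt and may differ from the study's. Members and lists were chosen with earlier results of these data known.

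UMI counts were summed per class and library (numpy 2.4.6, pandas 2.3.3, scipy 1.17.1). CPM have exact Poisson intervals and ratios exact intervals from the split of the counts, all at 95%. A gene with a mean of at least 10 CPM was called at 1.5-fold or more relative to the median ratio of all such genes. With 1 library per group no test was made. The script for ratios was tested on simulated data. Named genes were the 9 members, up to 3 genes per list and direction past 1.5-fold by size (Efnb2 and Dll4, outside that rule, were named to complete a count of 5), the 3 genes most like each member, and Unc5b and Dll4 in the second comparison, Erg and Fli1 in the first and Adm's zero count, which were named after their values were seen. Doublets were left in. As an alternative Scrublet (scanpy 1.11.5) marked 125, 12 and 3 cells, under 0.5% in the last 2 libraries, where the 137 and 61 cells with the highest scores were removed instead. Depth per library is given with the results. Other alternatives were thinning to 2000 UMIs, a stricter cell filter, other classes and scales.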

Additional observations from a re-analysis of the deposited data

How the results depend on the processing

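All values here are log2 ratios relative to the median of all genes unless said otherwise. Of 115 alternative values of the main comparisons (receptor median, Vegfa in podocyte-like cells, Angpt1 in stroma-like cells), 103 stayed within the counting interval of the reported value and 12 moved out of it. Thinned to 2000 UMIs, the receptor median for TDI-11055 over Enl-T1 was -0.32 (reported -0.50), Vegfa against Enl-WT was -3.43 in Enl-T1 and -1.74 in TDI-11055 (reported -2.45 and -1.25), and Angpt1 for TDI-11055 over Enl-T1 was -0.10 (reported -0.55). Thinned, Vegfc in endothelial-like cells for TDI-11055 over Enl-WT was 0.10 (reported -0.76), on the other side of 0 and from 11 and 44 UMIs. With 2000 to 6000 genes and at most 5% mitochondrial UMIs, Angpt1 against Enl-WT was 1.12 in Enl-T1 and 0.43 in TDI-11055 (reported 0.15 and -0.43), with 146 Enl-WT stroma cells left. With cells limited to those with Xist and without Y-linked UMIs, for TDI-11055 over Enl-WT the receptor median was -0.32 (reported -0.45) and Vegfa -0.76. Chosen after seeing the data were 6 alternatives. Not centred on the median of all genes, the receptor median against Enl-WT was -0.47 in Enl-T1 and -0.81 in TDI-11055 (reported -0.15 and -0.45), and Angpt1 for Enl-T1 over Enl-WT was -0.16. In cells with at least 4 podocyte markers, Vegfa for TDI-11055 over Enl-WT was -0.83. Over all 457 alternative values, single genes included, 395 stayed and 61 moved. The other 1 was a 1.5-fold call that ended on the other side of 0 (Vegfc, above). Values within 1.5-fold crossed 0 as well. For Enl-T1 over Enl-WT, Kdr and Flt4 in endothelial-like cells each kept their sign in 12 of 15 alternatives. Angpt1 in stroma-like cells did so in 10 of 12 there. Of the single genes called at 1.5-fold, Vegfc in endothelial-like cells for Enl-T1 over Enl-WT was -0.27 under the stricter cell filter (reported -0.67). Among stroma-like calls for TDI-11055 over Enl-T1, Angpt2 was 0.05 in the cells with Xist (reported 0.78), from 15 and 86 UMIs, and Vegfa was -0.46 under the stricter filter, -0.53 with each library clustered on its own and -0.49 in the cells with Xist (reported -0.65). Of the receptors within 1.5-fold, Flt1 for Enl-T1 over Enl-WT was past it at -0.73 when thinned, -0.75 in the cells with Xist and -0.91 in cells with no UMI of Mki67 or Top2a (reported -0.51), and Tie1 was -0.59 in the last (reported -0.30). For TDI-11055 over Enl-T1, Tek was -0.99 when thinned, from 16 and 69 UMIs, and -0.61 under the stricter filter (reported -0.50), Kdr was -0.60 under that filter (reported -0.53), and Flt4 was -0.94 in cells with no UMI of Mki67 or Top2a (reported -0.41). The causes of the moves were not tested, beyond what each setting leaves out.

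Not run were the filter without its upper limit of 6000 genes, Vegfa in podocyte-like cells with each library clustered on its own, which gave no podocyte cluster in Enl-T1 or TDI-11055, and comparisons of cells with at least 4 podocyte markers with Enl-T1, which had 0 such cells in the class. No paired analysis was possible because each group was 1 library. Depth limits classes with few cells, above all the arterial and lymphatic cells of TDI-11055. The border between arterial and remaining endothelial cells also shifted with the numerical settings of the linear algebra library used for clustering, so values split by those classes are less firm than those of the whole endothelial-like class.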
